A study of Homo sapiens with 12 samples.

Results

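EIF2AK2, ADAR, ZC3HAV1, PRKRA, STAU1, DHX9, DROSHA and DICER1 encode proteins that bind double-stranded RNA or work on it, and their own transcripts were followed here in RNA recovered with the J2 antibody. They were chosen by name, not by a measured value, but with earlier results of these data known, and are 8 of 58780 annotated genes. Every region of the deposited count table that lay in the annotated body of one of them, on its strand, was taken in all 12 libraries.

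The libraries came from NCI-H1944, a human lung adenocarcinoma cell line. Double-stranded RNA had been pulled down with J2, an antibody to double-stranded RNA, and sequenced with a stranded total RNA kit. The series set out to find RNAs that form duplexes in an interferon-dependent way once MPS1 had been inhibited for a limited time. No input RNA was analysed here. A J2 value can therefore move with the abundance of an RNA, with the share of it that is double-stranded, or with both. In bulk cells, fewer cells with a transcript and less of it per cell cannot be told apart either.

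Of the 6 groups, 3 carried the label IFNAR1sg and an IFNAR1 knockout genotype; IFNAR1 is a subunit of the type I interferon receptor. Their treatments were MPS1i, IFNb and DMSO. The other 3 groups carried the label SCR and a wild-type genotype, and received the same 3 treatments. MPS1i was BAY-1217389, an inhibitor of the spindle checkpoint kinase MPS1, at 100 nM for 48 h and then washed out; DMSO was its control. IFNb, recombinant interferon beta, was given at 5 ng/ml in the following 24 h of culture. Each group had 2 libraries. Whether the 2 came from separate cultures, and whether IFNAR1sg cells were a pool or a clone, is not stated in the labels used here. The p-values therefore measure only the spread between these libraries, which may be technical and was estimated mostly from all genes or regions together. MPS1i and IFNb were compared with the same DMSO libraries within each genotype, so the 2 changes of a gene are not independent.

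As background, PKR, the product of EIF2AK2, is a kinase that double-stranded RNA switches on and that then phosphorylates eIF2, which lowers translation. ADAR converts adenosine to inosine in double-stranded RNA, chiefly in paired Alu repeats, and its long p150 form is interferon-inducible. ZC3HAV1 encodes ZAP, an antiviral protein that binds CpG-rich RNA and brings in decay factors. PRKRA encodes PACT, a binding partner of PKR and of Dicer. STAU1 binds duplexes in mRNA, and DHX9 unwinds RNA duplexes. DROSHA and DICER1 are the nuclear and cytoplasmic enzymes that cut microRNA precursors.

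The promoter sequences of EIF2AK2 and ADAR are shown because both genes have interferon-responsive starts and both changed in these libraries. They are RefSeq sequences of GRCh38.p14, from 150 bases before to 30 bases after an annotated start. The EIF2AK2 stretch is chr2:37156951-37157130 on the minus strand, and the ADAR stretch is chr1:154608768-154608947 on the minus strand, at the inner start of that gene. Capitals mark the motif GAAANNGAAA, an interferon-response-like element, searched on both strands.
EIF2AK2: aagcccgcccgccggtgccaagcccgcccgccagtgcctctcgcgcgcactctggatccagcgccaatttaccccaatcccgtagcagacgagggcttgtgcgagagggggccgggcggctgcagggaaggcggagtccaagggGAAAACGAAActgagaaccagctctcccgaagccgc
ADAR: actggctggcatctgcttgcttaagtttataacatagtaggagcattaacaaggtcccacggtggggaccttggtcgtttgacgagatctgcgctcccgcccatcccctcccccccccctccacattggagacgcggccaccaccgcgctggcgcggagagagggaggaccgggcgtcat
The motif lay in 1 of the 17 RefSeq promoters of the 8 genes, that of EIF2AK2. It lay in 3.57% of all 35116 promoters of 300 bases in that table, so a single match is a description and no more. The ADAR window holds no match to these letters. Its start lies 549 bases upstream of the p150 start used below, and the bases around that p150 start were not searched.

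A region is a stretch of one strand for which the table gives a whole number of reads per library. The 8 gene bodies held 1056 regions, of which 115 had enough reads to be tested singly. Only 11 regions shared an exon base of their own strand, and these carried from 0% of the reads (STAU1 and PRKRA) to 83% (DHX9). Each of the 10 such regions that could be tested touched an exon by exactly 1 base. Reads of the adjoining exon and of the region itself cannot be told apart there. Reads were therefore summed per gene without exon-sharing regions, which leaves mostly introns, and again with them. Levels are given as CPM, counts scaled to a common size by the reads in tested regions and TMM factors. A change was called at an adjusted p under 0.05 in edgeR's quasi-likelihood test, with Benjamini-Hochberg adjustment over all 14642 gene sums without exon-sharing regions, 15145 with them, or 89111 regions. All 8 genes passed the filter on low counts. Where groups are said below not to overlap, or 1 to lie above another, this describes groups of 2 libraries each. The share of all genes or regions with such a separation was not counted, so the separation alone is no result about these genes.

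Library totals ran between 3739443 and 7430687 reads. Both SCR IFNb libraries stood apart: they had reads in 295367 and 296843 regions, against at least 566704 in the others. Exon-sharing regions took 49.6% and 47.9% of their reads, against 33.2% to 39.7% elsewhere. The median change of all gene sums without exon-sharing regions was -0.57 on the log2 scale for IFNb in SCR cells, and 0.04 when the libraries were scaled with DESeq2 on the sums. Of the genes called there, 17.1% were higher, against 52.2% with DESeq2 and 9% without TMM factors. Small changes in that comparison therefore depend on the scaling. Where DESeq2, no TMM factors, a minimum count of 20 or a fit of only the groups compared moved a call there, for a sum without exon-sharing regions, the value is given with the gene. As label checks, IFNAR1 with exon-sharing regions lay at 5.44 to 8.67 CPM in the IFNAR1sg libraries and at 11.7 to 18.0 CPM in the SCR libraries. Without them it did not separate the genotypes in DMSO, with a difference of -0.18 ± 0.38 (adjusted p = 0.953), and with IFNb in SCR cells it changed by -1.99 ± 0.55 (adjusted p = 0.00139). ISG15, an interferon-stimulated gene, summed without exon-sharing regions, changed with IFNb by 0.39 ± 0.26 in IFNAR1sg cells (adjusted p = 0.674) and by 2.34 ± 0.26 in SCR cells (adjusted p = 2.78e-14). With exon-sharing regions ISG15 had 11.1 and 13.6 CPM with IFNb and 7.78 and 9.08 CPM with DMSO in IFNAR1sg cells. Other genes, such as OAS2 and OAS3 below, were called higher with IFNb in IFNAR1sg cells. Of 8 lung epithelial markers 6 had reads, KRT8 the most with 173625 and KRT18 next with 2195, and KRT19 and NKX2-1 were at 0. The sum of these markers therefore mostly follows KRT8. Their summed level was 3202 to 3844 CPM with IFNb, 2460 to 2877 CPM with MPS1i and 2346 to 2402 CPM with DMSO in IFNAR1sg cells. In SCR cells it was 4700 to 5173 CPM with IFNb, 3495 to 3915 CPM with MPS1i and 2072 to 2218 CPM with DMSO. The 8 fibroblast markers summed to 18.5 to 24.2 CPM in MPS1i libraries and 2.32 to 8.92 CPM in the others, with COL1A2 at 0. Over all 12 libraries FAP had 404 of these reads and ACTA2 124, and no other marker had more than 27. That sum therefore mostly follows FAP and ACTA2 and does not describe the list as a whole. The part of these differences in the results below was not tested.

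In the sums without exon-sharing regions, MPS1i raised 4 of the 8 genes in SCR cells (EIF2AK2, ADAR, ZC3HAV1 and STAU1) and lowered 1 (DHX9). Over all genes 22.2% rose and 21.4% fell in that comparison. IFNb raised 3 in SCR cells (EIF2AK2, PRKRA and ADAR) and lowered DHX9, where 7.92% of all genes rose and 38.5% fell. These counts depend on the scaling: DESeq2 called 6 higher, adding STAU1, ZC3HAV1 and DROSHA, and 1 lower, while edgeR without TMM factors called 2 higher and 4 lower. In IFNAR1sg cells MPS1i raised EIF2AK2 and ADAR and lowered DHX9 and DROSHA, against 26.8% of all genes higher and 19.3% lower. IFNb in IFNAR1sg cells raised EIF2AK2 alone and lowered none, against 0.642% higher and 0.635% lower. No member differed between IFNAR1sg and SCR cells in DMSO, where 0.0751% of all genes were called; 0 members had an unadjusted p under 0.05 in edgeR. By DESeq2 the same comparison also gave 0 members.

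With exon-sharing regions added, MPS1i in SCR cells raised the same number, 4 of 8, and lowered none, where 25% of all genes rose and 16.1% fell. IFNb in SCR cells then raised 6 of 8 and lowered none, against 16.2% higher and 28.9% lower. MPS1i in IFNAR1sg cells raised 3 and lowered 1, against 27.3% and 15.8%. IFNb in IFNAR1sg cells raised 3, against 1.42% higher and 0.555% lower, and no member differed in DMSO, against 0.165%. Shares near those of all genes, such as the 2 raised and 2 lowered by MPS1i in IFNAR1sg cells, are no result about these genes.

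Among the 115 tested regions, MPS1i in SCR cells raised 25 and lowered 7, where 9.55% of all regions rose and 7.97% fell. IFNb in SCR cells raised 27 and lowered 9, against 15% and 18.1%. MPS1i in IFNAR1sg cells raised 16 and lowered 12, against 9.4% and 7.87%. IFNb in IFNAR1sg cells raised 6 and lowered none, against 0.549% and 0.131%. No member region differed in DMSO between IFNAR1sg and SCR cells, against 0.0774%; 9 of the 115 had an unadjusted p under 0.05 in edgeR. All 10 exon-sharing regions but 1 rose with IFNb in SCR cells, and 4 of them rose with IFNb in IFNAR1sg cells. The share of all exon-sharing regions that rose was not counted. Such regions took 49.6% and 47.9% of the reads in SCR IFNb libraries, against 33.2% to 39.7% elsewhere. The SCR count can therefore not be read as a result about these genes. That limit applies also to single exon-sharing regions that rose with IFNb in SCR cells.

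**Figure D1:**
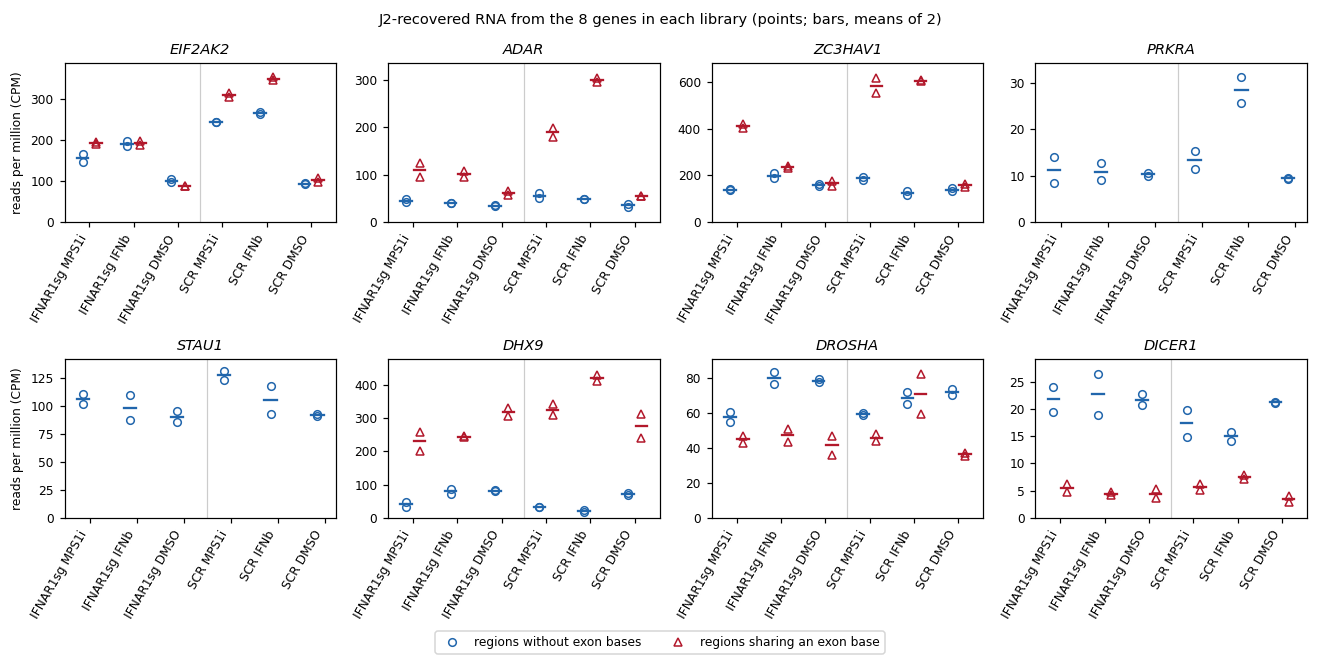
Level of each gene in each library, in CPM, by genotype and treatment: circles are sums of regions without exon bases, triangles are sums of exon-sharing regions, and bars are means of 2. EIF2AK2 exceeds its DMSO libraries in every treated group, PRKRA stands out with SCR IFNb at 25.7 and 31.2 CPM, and DHX9 circles drop below DMSO in 3 of the 4 treated groups.

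**Figure D2:**
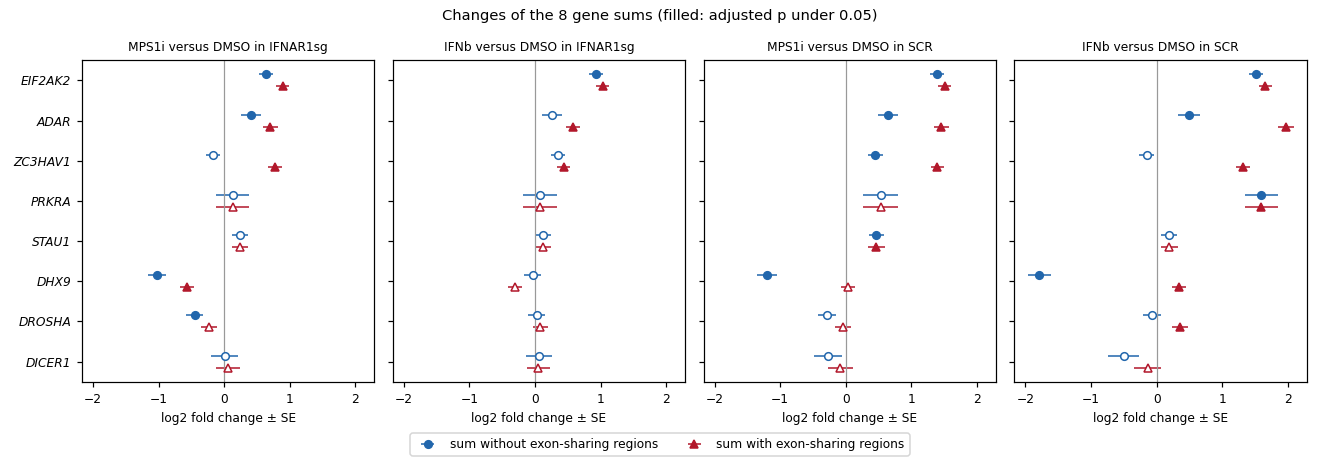
Log2 fold change against DMSO with its standard error for the 8 genes, in 4 panels by genotype and treatment; filled symbols passed an adjusted p under 0.05. Circles are sums without exon-sharing regions and triangles sums with them. EIF2AK2 is filled in all 4 panels, and the 2 kinds of sum part most for DHX9, ADAR and ZC3HAV1 with IFNb in SCR cells.

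EIF2AK2, the PKR kinase gene, rose with both treatments in both genotypes. Its body is chr2:37099210-37157065 on the minus strand. Without exon-sharing regions it had 165 and 148 CPM with MPS1i, 198 and 186 CPM with IFNb, and 97.6 and 104 CPM with DMSO in IFNAR1sg cells. SCR libraries had 244 and 244 CPM with MPS1i, 264 and 268 CPM with IFNb, and 94.3 and 92.0 CPM with DMSO. Treated and DMSO libraries did not overlap in either genotype, and the SCR treated libraries were above all IFNAR1sg treated ones. The log2 change was 0.63 ± 0.11 with MPS1i (adjusted p = 2.42e-07) and 0.93 ± 0.11 with IFNb (adjusted p = 3.12e-12) in IFNAR1sg cells. In SCR cells it was 1.39 ± 0.11 with MPS1i, a 2.62-fold level (adjusted p = 7.54e-24), and 1.51 ± 0.11 with IFNb, a 2.86-fold level (adjusted p = 8.63e-27).

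The difference between genotypes was itself tested, as the IFNAR1sg change minus the SCR change. For EIF2AK2 it was -0.76 ± 0.15 with MPS1i (adjusted p = 0.000418) and -0.59 ± 0.15 with IFNb (adjusted p = 0.000978). With exon-sharing regions it was -0.61 ± 0.14 with MPS1i (adjusted p = 0.00604) and -0.63 ± 0.14 with IFNb (adjusted p = 0.000352). The rise of this transcript was smaller in IFNAR1sg cells and still called there. The IFNb difference without exon-sharing regions was -1.14 with DESeq2 (adjusted p = 2.52e-14), and -0.31 without TMM factors, where it was not called (adjusted p = 0.0847). Without IFNAR1sg DMSO replicate 2 the MPS1i difference with exon-sharing regions was -0.56 at an adjusted p of 0.0575. Left without regions that name a repeat, the IFNb difference was 0.0062 (adjusted p = 0.995) and the MPS1i difference -0.56 (adjusted p = 0.556). Regions that name a repeat held 83.2% of the EIF2AK2 reads outside exon-sharing regions, so these 2 values rest on the smaller part.

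Alu-bearing regions held 75.8% of the EIF2AK2 reads outside exon-sharing regions, against 29.8% over all genes; Alu repeats placed in opposite orientation can fold into duplexes. A region of 3 AluJb copies, an AluSc and an AluSp at 37122848-37126288 had 76.4 and 48.8 CPM with MPS1i, 74.1 and 74.3 CPM with IFNb, and 44.0 and 44.4 CPM with DMSO in IFNAR1sg cells. SCR cells had 121 and 107 CPM with MPS1i, 118 and 110 CPM with IFNb, and 45.6 and 35.4 CPM with DMSO. The SCR changes were 1.49 ± 0.18 with MPS1i (adjusted p = 6.9e-10) and 1.48 ± 0.18 with IFNb (adjusted p = 3.95e-10), and the IFNAR1sg changes were 0.50 ± 0.18 (adjusted p = 0.0419) and 0.74 ± 0.18 (adjusted p = 0.0173). A second Alu region nearer the start, 37152286-37155939 with AluSx1, AluJr and AluSq2, rose by 2.14 ± 0.20 with IFNb in SCR cells (adjusted p = 1.5e-14) and by 1.04 ± 0.19 in IFNAR1sg cells (adjusted p = 0.000482).

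The exon-sharing regions of EIF2AK2 moved in the same direction. The one at 37146851-37146853, which touches exon 4 of EIF2AK2-201, had 124 and 121 CPM with MPS1i, 114 and 117 CPM with IFNb, and 52.7 and 59.2 CPM with DMSO in IFNAR1sg cells. SCR libraries had 197 and 196 CPM with MPS1i, 240 and 235 CPM with IFNb, and 62.3 and 62.0 CPM with DMSO. It rose by 1.94 ± 0.16 with IFNb (adjusted p = 1.52e-17) and by 1.66 ± 0.16 with MPS1i (adjusted p = 3.73e-14) in SCR cells. The other, 37114402-37114731 at exon 14, rose by 1.31 ± 0.18 with IFNb in IFNAR1sg cells (adjusted p = 2.39e-07) and by 1.49 ± 0.18 in SCR cells (adjusted p = 1.11e-10). Of the 16 tested EIF2AK2 regions without exon bases, 6 rose with MPS1i and 5 with IFNb in SCR cells, 3 and 2 in IFNAR1sg cells, and none fell.

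ADAR, the editing enzyme gene at chr1:154582057-154628013 on the minus strand, also rose, and most of its change lay in 1 exon-sharing region. That region, 154589755-154589757 beside exon 8 of ADAR-202, held 6861 of the 9316 ADAR reads. It had 124 and 95.7 CPM with MPS1i, 108 and 95.1 CPM with IFNb, and 65.6 and 57.3 CPM with DMSO in IFNAR1sg cells. SCR cells had 198 and 180 CPM with MPS1i, 303 and 295 CPM with IFNb, and 54.1 and 53.6 CPM with DMSO. All treated libraries were above all DMSO libraries, and the SCR IFNb pair was the highest. The change was 0.84 ± 0.16 with MPS1i (adjusted p = 5.32e-05) and 0.73 ± 0.16 with IFNb (adjusted p = 0.00531) in IFNAR1sg cells. In SCR cells it was 1.81 ± 0.16 with MPS1i (adjusted p = 3.77e-15) and 2.47 ± 0.16 with IFNb (adjusted p = 3.48e-22). For IFNb the IFNAR1sg change minus the SCR change was -1.74 (adjusted p = 1.83e-08).

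The ADAR sum without that region changed less. It had 42.0 and 47.6 CPM with MPS1i, 39.8 and 40.6 CPM with IFNb, and 32.5 and 34.7 CPM with DMSO in IFNAR1sg cells. SCR libraries had 59.95 and 49.4 CPM with MPS1i, 49.1 and 48.5 CPM with IFNb, and 32.3 and 37.4 CPM with DMSO. Treated and DMSO libraries still did not overlap within either genotype. The changes in SCR cells were 0.64 ± 0.16 with MPS1i (adjusted p = 0.000326) and 0.49 ± 0.17 with IFNb (adjusted p = 0.00961). In IFNAR1sg cells they were 0.41 ± 0.15 with MPS1i (adjusted p = 0.0203) and 0.26 ± 0.15 with IFNb (adjusted p = 0.625). The IFNb change in SCR cells was 1.10 with DESeq2 (adjusted p = 2e-08). In edgeR it was not called without TMM factors (0.17, adjusted p = 0.399), with only the groups compared (0.27, adjusted p = 0.139), with a minimum count of 20 (0.33, adjusted p = 0.0873) or without repeat-naming regions (0.20, adjusted p = 0.505). It was also lost without SCR DMSO replicate 1 (adjusted p = 0.0906) or SCR IFNb replicate 1 (adjusted p = 0.0503). The MPS1i call in IFNAR1sg cells was lost without IFNAR1sg DMSO replicate 1 (adjusted p = 0.1), IFNAR1sg DMSO replicate 2 (adjusted p = 0.0541) or IFNAR1sg MPS1i replicate 2 (adjusted p = 0.185), and likewise with DESeq2 (adjusted p = 0.0668), a minimum count of 20 (adjusted p = 0.0569) or no TMM factors (adjusted p = 0.115). The difference between genotypes in the IFNb change of this sum was called with DESeq2, at -0.78 (adjusted p = 0.0131).

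The ADAR transcript with the longest coding sequence, 1226 residues and thus the p150 form, starts at 154608248, while transcripts from starts farther upstream code for at most 931 residues. Regions without exon bases downstream of the p150 start rose by 0.80 ± 0.19 with MPS1i (adjusted p = 0.000227) and by 0.60 ± 0.20 with IFNb (adjusted p = 0.00882) in SCR cells. Upstream regions changed by 0.38 ± 0.23 (adjusted p = 0.176) and 0.31 ± 0.25 (adjusted p = 0.325), and the difference between the 2 stretches was not tested. In IFNAR1sg cells the downstream stretch rose by 0.62 ± 0.19 with MPS1i (adjusted p = 0.00413) and changed by 0.44 ± 0.19 with IFNb (adjusted p = 0.364).

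The ADAR regions that rose most among those without exon bases lay around this start. The AluSz region 154608513-154608745 lies between the inner RefSeq start shown above and the p150 start. It was therefore counted in the upstream stretch, whose sum was not called. This region had 3.001 and 1.31 CPM with MPS1i, 1.90 and 1.87 CPM with IFNb, and 0.889 and 0.159 CPM with DMSO in IFNAR1sg cells. SCR cells had 4.94 and 2.16 CPM with MPS1i, 6.69 and 4.14 CPM with IFNb, and 0.667 and 0 CPM with DMSO. Its change in SCR cells was 3.84 ± 0.77 with IFNb (adjusted p = 5.82e-05) and 3.18 ± 0.79 with MPS1i (adjusted p = 0.00243), on 112 reads in all. The region 154606376-154606923 rose by 2.17 ± 0.45 with MPS1i in SCR cells (adjusted p = 0.000224) and by 2.04 ± 0.47 in IFNAR1sg cells (adjusted p = 0.000993). These regions were picked after their values had been seen.

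**Figure D3:**
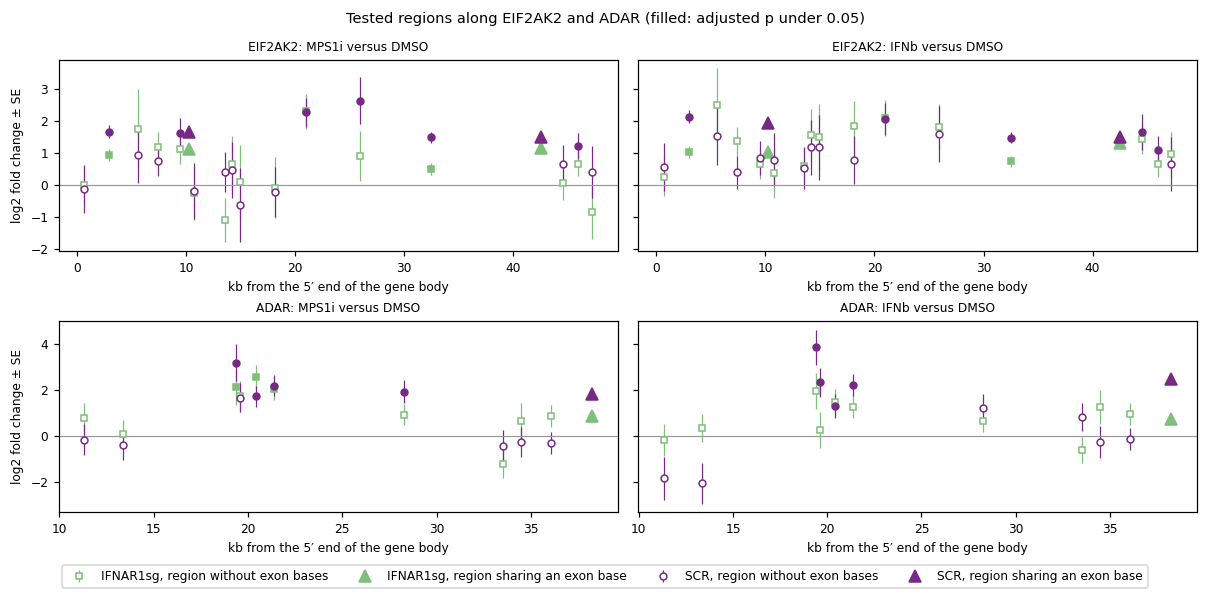
Log2 fold change against DMSO with its standard error of each tested region of EIF2AK2 (top) and ADAR (bottom), by distance in kb from the 5′ end of the gene body, with MPS1i on the left and IFNb on the right. Squares and light triangles are IFNAR1sg, circles and dark triangles SCR, triangles share an exon base, and filled symbols were called. No called region of either gene lies below 0, and the called ADAR regions begin near the p150 start.

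ZC3HAV1, the ZAP gene at chr7:139043520-139109719 on the minus strand, gave different answers for its introns and its exon-sharing region. The region 139080243-139082238, beside exon 4 of ZC3HAV1-203 and naming a FRAM and a Tigger19b repeat, held 19077 of 28484 reads. It had 403 and 419 CPM with MPS1i, 239 and 233 CPM with IFNb, and 156 and 173 CPM with DMSO in IFNAR1sg cells. SCR libraries had 618 and 553 CPM with MPS1i, 605 and 608 CPM with IFNb, and 163 and 150 CPM with DMSO. Groups did not overlap between treatment and DMSO in either genotype. It rose by 1.32 ± 0.13 with MPS1i (adjusted p = 1.82e-12) and by 0.52 ± 0.13 with IFNb (adjusted p = 0.0337) in IFNAR1sg cells. In SCR cells it rose by 1.90 ± 0.14 with MPS1i (adjusted p = 6.53e-20) and by 1.96 ± 0.14 with IFNb (adjusted p = 5.62e-21).

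The remaining 111 regions of ZC3HAV1 summed to 142 and 135 CPM with MPS1i, 188 and 210 CPM with IFNb, and 161 and 152 CPM with DMSO in IFNAR1sg cells. In SCR cells they summed to 195 and 182 CPM with MPS1i, 131 and 116 CPM with IFNb, and 144 and 131 CPM with DMSO. Of the 4 treatment comparisons only MPS1i in SCR cells passed the test, with a change of 0.45 ± 0.11 (adjusted p = 0.000266). IFNb gave 0.35 ± 0.11 in IFNAR1sg cells (adjusted p = 0.0734) and -0.15 ± 0.11 in SCR cells (adjusted p = 0.285), and the SCR value was called in both directions under other settings. It was 0.46 with DESeq2 (adjusted p = 0.000138), -0.47 without TMM factors (adjusted p = 0.000113), -0.31 with a minimum count of 20 (adjusted p = 0.0266) and -0.37 with only the groups compared (adjusted p = 0.00529). MPS1i in IFNAR1sg cells was called lower without TMM factors, at -0.30 (adjusted p = 0.0112). In 9 of 12 fits that each left out 1 library, the IFNb change in IFNAR1sg cells did pass, at adjusted p from 0.0103 to 0.0463. The intronic MPS1i change was -0.62 ± 0.15 lower in IFNAR1sg than in SCR cells (adjusted p = 0.00849). That call was lost without IFNAR1sg DMSO replicate 1 (-0.58, adjusted p = 0.0565) or SCR MPS1i replicate 1 (-0.58, adjusted p = 0.0532), and without repeat-naming regions (-0.63, adjusted p = 0.206).

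PRKRA, the PACT gene at chr2:178431414-178451512 on the minus strand, rose with IFNb in SCR cells only among the 4 treatment comparisons. It was the least covered member, with 742 reads, none of them in exon-sharing regions. It had 8.30 and 14.1 CPM with MPS1i, 12.6 and 9.01 CPM with IFNb, and 10.0 and 10.5 CPM with DMSO in IFNAR1sg cells. SCR cells had 11.4 and 15.3 CPM with MPS1i, 25.7 and 31.2 CPM with IFNb, and 9.50 and 9.30 CPM with DMSO. The SCR IFNb libraries were above all 10 others. The change with IFNb was 0.08 ± 0.26 in IFNAR1sg cells (adjusted p = 0.96) and 1.59 ± 0.25 in SCR cells, a 3.02-fold level (adjusted p = 2.45e-08). The difference between genotypes was -1.52 ± 0.36 (adjusted p = 0.00032). With MPS1i the changes were 0.13 ± 0.26 in IFNAR1sg cells (adjusted p = 0.711) and 0.53 ± 0.27 in SCR cells (adjusted p = 0.0959).

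Alu-bearing regions held 74.5% of PRKRA reads, and most lay in 178434434-178436136, which names an AluJb. That region had 3.18 and 5.56 CPM with MPS1i, 8.21 and 5.61 CPM with IFNb, and 4.22 and 4.78 CPM with DMSO in IFNAR1sg cells. SCR libraries had 6.18 and 11.01 CPM with MPS1i, 17.1 and 21.4 CPM with IFNb, and 3.33 and 3.68 CPM with DMSO. It rose by 2.45 ± 0.36 with IFNb (adjusted p = 5.32e-08) and by 1.33 ± 0.37 with MPS1i (adjusted p = 0.0077) in SCR cells. Without repeat-naming regions the PRKRA change with IFNb in SCR cells was 0.49 (adjusted p = 0.656) and the difference between genotypes -0.82 (adjusted p = 0.612). Repeat-naming regions held 87.2% of the 742 PRKRA reads, so few reads were left and these lost calls do not place the change in such regions.

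STAU1, at chr20:49113339-49188367 on the minus strand, has no exon-sharing region in the table. It had 111 and 102 CPM with MPS1i, 87.5 and 110 CPM with IFNb, and 95.4 and 85.5 CPM with DMSO in IFNAR1sg cells. SCR cells had 132 and 124 CPM with MPS1i, 118 and 92.9 CPM with IFNb, and 91.5 and 93.3 CPM with DMSO. MPS1i and DMSO libraries did not overlap in either genotype, while the SCR IFNb pair reached down into the DMSO range. The MPS1i change was 0.24 ± 0.12 in IFNAR1sg cells (adjusted p = 0.0914) and 0.47 ± 0.12 in SCR cells (adjusted p = 0.000755). The IFNb change in SCR cells was 0.19 ± 0.13 (adjusted p = 0.218); with DESeq2 it was 0.81 (adjusted p = 2.95e-08), and without SCR IFNb replicate 2 it was 0.36 (adjusted p = 0.0441). Without repeat-naming regions the MPS1i change in IFNAR1sg cells was 0.46 and called (adjusted p = 0.0263).

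Several STAU1 regions that lie close together rose. Those at 49129870-49130932, 49132042-49133406, 49133416-49134426 and 49134449-49135225 rose with MPS1i in both genotypes and with IFNb in SCR cells. The third had 14.0 and 13.2 CPM with MPS1i, 7.42 and 6.12 CPM with IFNb, and 5.11 and 3.50 CPM with DMSO in IFNAR1sg cells. SCR libraries had 17.3 and 19.7 CPM with MPS1i, 19.3 and 16.6 CPM with IFNb, and 6.50 and 6.97 CPM with DMSO. Its MPS1i change was 1.68 ± 0.31 in IFNAR1sg cells (adjusted p = 3.14e-05) and 1.46 ± 0.29 in SCR cells (adjusted p = 9.66e-05). A region between them, at 49130951, was not called, and 3 regions farther away fell with MPS1i in IFNAR1sg cells.

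DHX9, the helicase gene at chr1:182839369-182887751 on the plus strand, was the member whose intronic sum fell most. Without exon-sharing regions it had 47.0 and 33.5 CPM with MPS1i, 72.2 and 87.3 CPM with IFNb, and 82.5 and 81.1 CPM with DMSO in IFNAR1sg cells. SCR cells had 32.1 and 31.1 CPM with MPS1i, 23.8 and 18.1 CPM with IFNb, and 69.3 and 75.7 CPM with DMSO. The IFNAR1sg IFNb pair alone among the treated groups overlapped its DMSO pair. With MPS1i it fell by 1.03 on the log2 scale in IFNAR1sg cells (SE 0.14, adjusted p = 4.06e-10) and by 1.20 in SCR cells (SE 0.15, adjusted p = 2.59e-11). With IFNb the change was -0.04 ± 0.13 in IFNAR1sg cells (adjusted p = 0.966) and -1.79 ± 0.18 in SCR cells (adjusted p = 1.62e-17), and the difference between them was 1.75 ± 0.22 (adjusted p = 2.92e-11). The median of that difference over all genes was 0.54. With DESeq2 the SCR value was -1.18 (adjusted p = 6.17e-08) and the difference 1.20 (adjusted p = 4.2e-05).

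The exon-sharing regions of DHX9 followed in part. Of 4 tested, 1 fell with MPS1i in IFNAR1sg cells, and in SCR cells none was called with MPS1i and 3 rose with IFNb. They summed to 259 and 202 CPM with MPS1i, 247 and 242 CPM with IFNb, and 306 and 331 CPM with DMSO in IFNAR1sg cells. In SCR cells they summed to 342 and 309 CPM with MPS1i, 431 and 413 CPM with IFNb, and 313 and 240 CPM with DMSO. SCR IFNb libraries were here the highest, where the intronic sum had them lowest. With these regions added, the DHX9 change with IFNb in SCR cells was 0.34 ± 0.11 (adjusted p = 0.00657), and the call was lost without SCR DMSO replicate 2 (0.22, adjusted p = 0.115) or SCR IFNb replicate 1 (0.30, adjusted p = 0.0578). It was also lost without TMM factors (0.02, adjusted p = 0.88), with only the groups compared (0.13, adjusted p = 0.316) and with a minimum count of 20 (0.18, adjusted p = 0.185), whereas DESeq2 gave 0.63 (adjusted p = 1.95e-08). The MPS1i change was then -0.57 ± 0.11 in IFNAR1sg cells (adjusted p = 1.18e-05) and 0.03 ± 0.11 in SCR cells (adjusted p = 0.844).

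Single intronic regions of DHX9 fell too. The region 182865085-182866422 had 8.65 and 3.27 CPM with MPS1i, 20.2 and 20.6 CPM with IFNb, and 16.9 and 16.2 CPM with DMSO in IFNAR1sg cells. SCR libraries had 4.63 and 4.32 CPM with MPS1i, 2.60 and 4.14 CPM with IFNb, and 14.3 and 16.5 CPM with DMSO. It fell by 2.18 with IFNb (adjusted p = 4.53e-06) and by 1.78 with MPS1i (adjusted p = 4.32e-05) in SCR cells, and by 1.48 with MPS1i in IFNAR1sg cells (adjusted p = 0.000151). Of 10 tested DHX9 regions without exon bases, 6 fell with MPS1i and 5 with IFNb in SCR cells, and none rose.

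**Figure D4:**
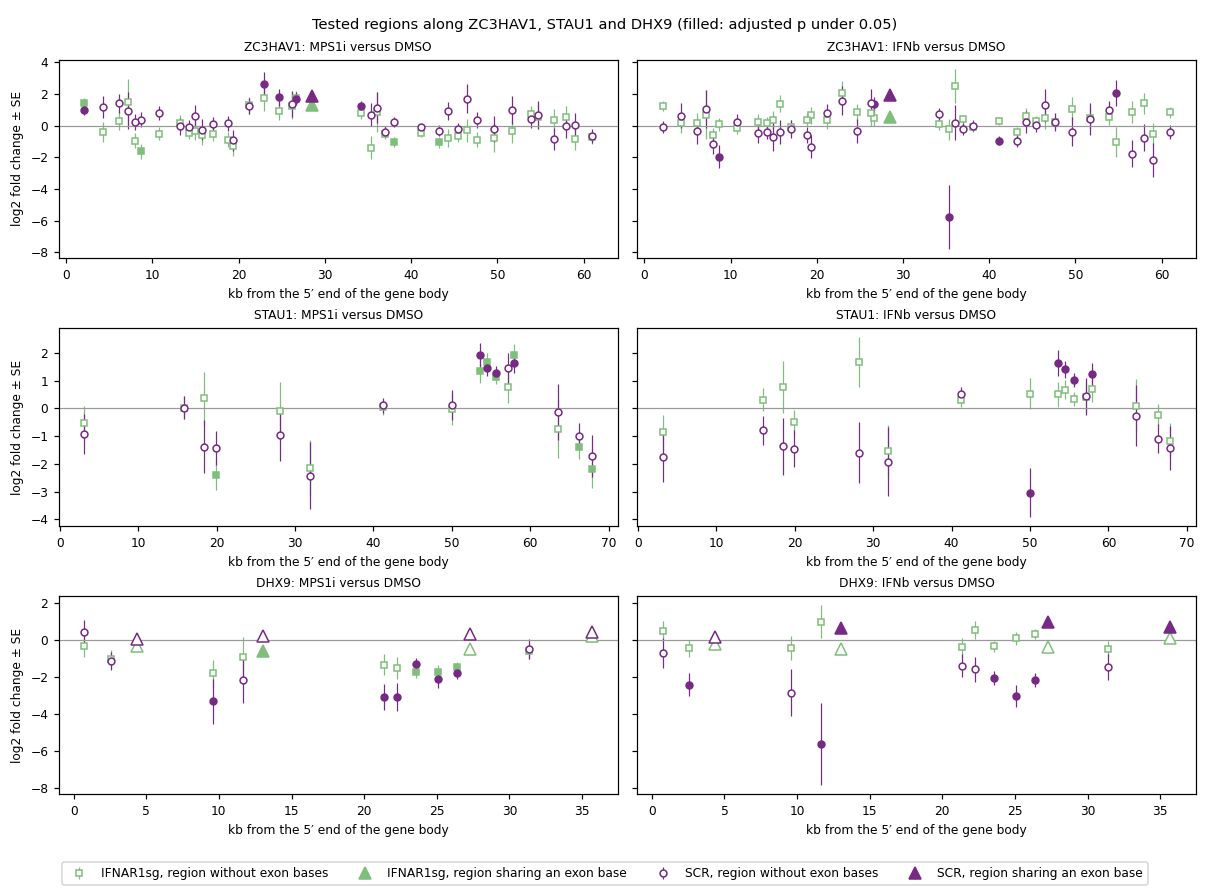
Log2 fold change against DMSO with its standard error of each tested region of ZC3HAV1, STAU1 and DHX9 (top to bottom), by distance in kb from the 5′ end of the gene body, with MPS1i on the left and IFNb on the right. Squares and light triangles are IFNAR1sg, circles and dark triangles SCR, triangles share an exon base, and filled symbols were called. The STAU1 regions called higher lie close together, and called DHX9 circles lie below 0 while its called SCR triangles lie above 0.

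DROSHA, the nuclear microRNA-processing nuclease at chr5:31400497-31532196 on the minus strand, had 60.5 and 55.1 CPM with MPS1i, 76.6 and 83.6 CPM with IFNb, and 79.4 and 78.2 CPM with DMSO in IFNAR1sg cells. SCR cells had 58.7 and 60.02 CPM with MPS1i, 65.1 and 72.2 CPM with IFNb, and 74.1 and 70.7 CPM with DMSO. The MPS1i libraries were below the DMSO libraries in both genotypes. The change was -0.45 ± 0.13 in IFNAR1sg cells (adjusted p = 0.00252) and -0.29 ± 0.13 in SCR cells (adjusted p = 0.0725). The IFNAR1sg call was lost without repeat-naming regions (-0.25, adjusted p = 0.262). The SCR change was called under 4 other settings, at -0.33 with DESeq2's size factors in edgeR (adjusted p = 0.0435), -0.36 with a minimum count of 20 (adjusted p = 0.0274), -0.45 without TMM factors (adjusted p = 0.00264) and -0.35 with only the groups compared (adjusted p = 0.0283). With IFNb in SCR cells the change was -0.08 (adjusted p = 0.678), but 0.54 with DESeq2 (adjusted p = 0.000602) and -0.40 without TMM factors (adjusted p = 0.00799). With its exon-sharing region added, the IFNAR1sg change was -0.23 (adjusted p = 0.101), and it was called at -0.33 with DESeq2 (adjusted p = 0.017) and at -0.36 without TMM factors (adjusted p = 0.00543). That region, 31525964-31526079 beside exon 2 of DROSHA-201, rose by 0.97 ± 0.19 with IFNb in SCR cells (adjusted p = 5.06e-05). With it, the DROSHA sum with IFNb in SCR cells changed by 0.36 (adjusted p = 0.0103), and by 0.20 without SCR IFNb replicate 2 (adjusted p = 0.304). That call was lost too without TMM factors (0.04, adjusted p = 0.79), with only the groups compared (0.15, adjusted p = 0.316) and with a minimum count of 20 (0.20, adjusted p = 0.178).

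DICER1, which encodes the cytoplasmic nuclease and lies at chr14:95086228-95158010 on the minus strand, did not pass the test in any treatment comparison with either sum. It had 24.0 and 19.5 CPM with MPS1i, 18.95 and 26.3 CPM with IFNb, and 22.7 and 20.7 CPM with DMSO in IFNAR1sg cells. SCR libraries had 14.8 and 19.9 CPM with MPS1i, 14.1 and 15.8 CPM with IFNb, and 21.3 and 21.1 CPM with DMSO. Both SCR IFNb libraries were below both SCR DMSO libraries, with a change of -0.50 ± 0.24 (adjusted p = 0.0713); with DESeq2 the value was 0.11 (adjusted p = 0.807). It was called lower without TMM factors (-0.82, adjusted p = 0.00141), with a minimum count of 20 (-0.66, adjusted p = 0.0125) and with only the groups compared (-0.72, adjusted p = 0.00465), on 1219 reads in all. Its exon-sharing region 95141187-95141352 rose by 1.14 ± 0.42 with IFNb in SCR cells (adjusted p = 0.0306).

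Comparing genotypes over all 8 genes, the MPS1i change differed for 2 without exon-sharing regions, EIF2AK2 and ZC3HAV1, against 1.38% of all genes. Both were lower in IFNAR1sg cells, where 154 of all 14642 genes were higher and 48 lower. With exon-sharing regions the MPS1i change differed for 4, adding ADAR (-0.75 ± 0.16, adjusted p = 0.00167) and DHX9 (-0.60 ± 0.15, adjusted p = 0.0156), against 2.05%. All 4 were lower, where 146 of all 15145 genes were higher and 164 lower. The DHX9 call was lost without IFNAR1sg DMSO replicate 2, IFNAR1sg MPS1i replicate 2, SCR DMSO replicate 2 or SCR MPS1i replicate 1, at adjusted p from 0.0963 to 0.126. No single region was called in that comparison, against 0.0628%, and 13 of 115 had an unadjusted p under 0.05 in edgeR. The IFNb change differed for 4 genes without exon-sharing regions, but 32.5% of all genes did so too. It was lower in IFNAR1sg cells for EIF2AK2 and PRKRA and higher for DHX9 and ZC3HAV1. Of all 14642 genes 4143 were higher and 619 lower. With exon-sharing regions it differed for 5, all lower in IFNAR1sg cells, against 29.9%. They were PRKRA, ADAR (-1.39 ± 0.16, adjusted p = 6.49e-11), ZC3HAV1 (-0.87, adjusted p = 6.48e-07), DHX9 (-0.65, adjusted p = 0.000469) and EIF2AK2. Of all 15145 genes 3050 were higher and 1473 lower. Of the single regions 15 were called, 5 higher and 10 lower in IFNAR1sg cells, against 12.2%. Of all 89111 regions 6294 were higher and 4553 lower.

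Both strands of several of these genes were recovered. On the strand opposite ADAR, 1 region of 49870 bp (chr1:154581891-154631760, plus strand) spans the whole gene and held 32775 reads, against 9316 on the gene's own strand. It had 523 and 701 CPM with MPS1i, 541 and 408 CPM with IFNb, and 218 and 204 CPM with DMSO in IFNAR1sg cells. SCR cells had 741 and 891 CPM with MPS1i, 1419 and 1543 CPM with IFNb, and 229 and 313 CPM with DMSO. It rose by 1.54 ± 0.14 with MPS1i (adjusted p = 1.92e-14) and by 1.17 ± 0.14 with IFNb (adjusted p = 2.69e-09) in IFNAR1sg cells. In SCR cells it rose by 1.59 ± 0.14 with MPS1i (adjusted p = 1.74e-15) and by 2.45 ± 0.14 with IFNb (adjusted p = 2.71e-25). It covers all 9691 ADAR exon bases, whereas tested regions on ADAR's own strand cover 1. The rule by which strands were assigned was not given, so reads of ADAR mRNA and of an antisense RNA cannot be told apart in it. This limit is not particular to ADAR. Opposite-strand regions covered 100% of the exon bases of STAU1 and DROSHA, 99.2% for DICER1, 98.4% for DHX9 and 96.0% for EIF2AK2. For PRKRA they covered 75.3% and for ZC3HAV1 53.4%.

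PRKRA overlaps CHROMR, a long non-coding RNA gene on the opposite strand, and 19543 opposite-strand reads stood against 742 of its own. They came to 236 and 224 CPM with MPS1i, 298 and 315 CPM with IFNb, and 202 and 191 CPM with DMSO in IFNAR1sg cells. In SCR cells they came to 460 and 416 CPM with MPS1i, 981 and 907 CPM with IFNb, and 225 and 225 CPM with DMSO. Its largest region, 178435405-178436773, rose by 2.07 ± 0.14 with IFNb in SCR cells (adjusted p = 2.23e-21) and by 0.63 ± 0.14 in IFNAR1sg cells (adjusted p = 0.00684). Since the 2 strands cannot be told apart without the counting rule, the PRKRA values above are uncertain. The same holds for the other members, to a degree that was not tested. Of the 16 tested opposite-strand regions of the 8 genes without exon bases of their own strand, 8 rose with MPS1i and 12 with IFNb in SCR cells, and 5 and 4 in IFNAR1sg cells. Over all 89111 regions 9.55% and 15% rose in SCR cells, and 9.4% and 0.549% in IFNAR1sg cells. None of the 16 fell. The DHX9 opposite-strand region, with 10339 reads, was not called in these comparisons.

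**Figure D5:**
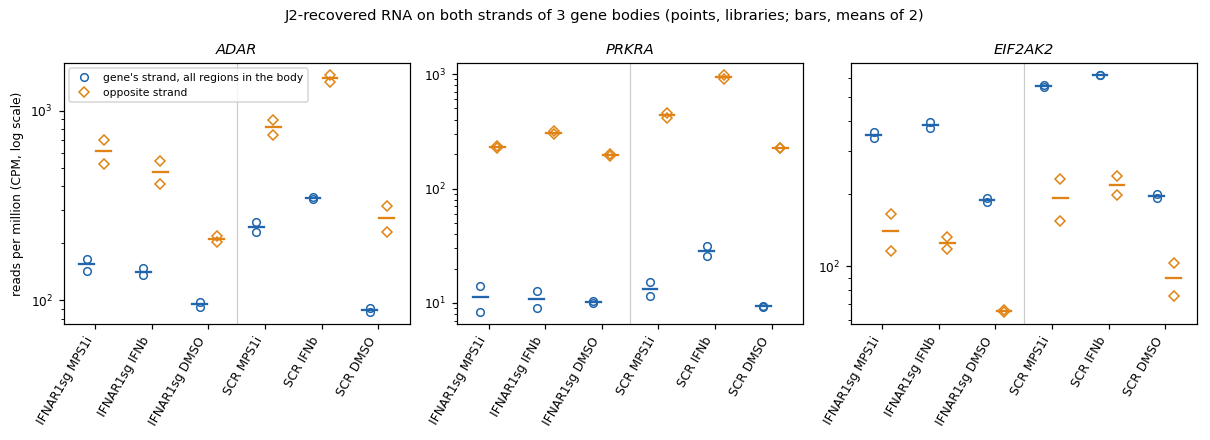
Level in CPM on a log axis for ADAR, PRKRA and EIF2AK2 in each library, on the gene's own strand (circles, all regions in the body) and on the opposite strand (diamonds); bars are means of 2. The opposite strand exceeds the gene's own strand for ADAR and PRKRA in all 12 libraries, and for EIF2AK2 it does not.

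Per kb of regions without exon bases in SCR DMSO libraries, levels ran in the order ZC3HAV1 (2.73 ± 0.18 CPM per kb), EIF2AK2 (2.36 ± 0.04), DHX9 (2.27 ± 0.14), STAU1 (1.66 ± 0.02), ADAR (1.30 ± 0.13), PRKRA (1.23 ± 0.02), DROSHA (0.895 ± 0.030) and DICER1 (0.859 ± 0.006; SD, n = 2 each). The neighbours EIF2AK2 and DHX9, ADAR and PRKRA, and DROSHA and DICER1 were within about their spread of each other. In SCR IFNb libraries EIF2AK2 led with 6.76 ± 0.08 CPM per kb, PRKRA came second with 3.73 ± 0.52, and DHX9 stood near the bottom with 0.656 ± 0.127, close to DICER1 at 0.606 ± 0.048. In IFNAR1sg IFNb libraries EIF2AK2 had 4.88 ± 0.20 and PRKRA 1.42 ± 0.34 CPM per kb.

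Partner genes of the 8 were counted in 5 lists, with sums without exon-sharing regions and calls over all genes. The share of all genes called stands beside each count for SCR cells; in IFNAR1sg cells 26.8% rose and 19.3% fell with MPS1i, and 0.642% rose and 0.635% fell with IFNb. Of 12 measured eIF2 kinases and factors (16 listed), 1 rose and 6 fell with MPS1i in SCR cells (22.2% and 21.4% of all genes), and 1 rose and 7 fell with IFNb (7.92% and 38.5% of all genes). In IFNAR1sg cells the counts were 1 and 5 with MPS1i and 0 and 0 with IFNb. Their median changes were -0.47 and -0.47 in SCR cells, beside 0.09 and -0.57 over all genes. EIF2B3, a subunit of the eIF2 exchange factor, fell by 1.16 (SE 0.16, adjusted p = 3.02e-10) with MPS1i in SCR cells. PPP1R15A, which directs eIF2 dephosphorylation, had 4.79 ± 0.66 CPM with MPS1i and 0.277 ± 0.156 CPM with DMSO in SCR cells (SD, n = 2 each), a change of 4.02 ± 0.87 (adjusted p = 5.46e-05). Its DMSO level rests on very few reads, so the size of that change is uncertain. In IFNAR1sg cells the 1 gene that rose with MPS1i was EIF2B5 (1.30 ± 0.45, adjusted p = 0.0122), and PPP1R15A was not called higher. EIF2S2, the eIF2 beta subunit, fell by 1.15 with MPS1i in SCR cells, but changed by 0.068 once exon-sharing regions were added.

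Among 14 measured ZAP cofactors and decay genes (16 listed), 6 rose and 5 fell with MPS1i in SCR cells (22.2% and 21.4% of all genes), and 5 rose and 7 fell with IFNb (7.92% and 38.5%). In IFNAR1sg cells 5 rose and 6 fell with MPS1i and 3 rose with IFNb. PARP12, a ZAP relative, rose by 1.24 with MPS1i (adjusted p = 7.31e-11) and 1.08 with IFNb (adjusted p = 3.18e-07) in IFNAR1sg cells, and by 2.22 (adjusted p = 3.25e-26) and 2.55 (adjusted p = 1.98e-31) in SCR cells. TRIM25, the ubiquitin ligase that works with ZAP, rose by 0.96 with MPS1i in IFNAR1sg cells (adjusted p = 3.51e-06) and by 1.75 in SCR cells (adjusted p = 1.33e-15). UPF1, the nonsense-mediated decay helicase, fell by 1.31 with MPS1i in IFNAR1sg cells (adjusted p = 3.19e-07) and by 0.99 in SCR cells (adjusted p = 0.000511).

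Of 13 measured microRNA-processing genes (15 listed), 1 rose and 8 fell with MPS1i in SCR cells (22.2% and 21.4% of all genes), and 1 rose and 9 fell with IFNb (7.92% and 38.5%). In IFNAR1sg cells 2 rose and 7 fell with MPS1i and none passed with IFNb. Their median changes with MPS1i and IFNb were -0.52 and -1.01 in SCR cells, beside 0.09 and -0.57 over all genes. TNRC6B, an Argonaute partner, fell by 1.62 with IFNb (adjusted p = 4.09e-19) and by 0.78 with MPS1i (adjusted p = 2.12e-07) in SCR cells. AGO2 fell by 1.36 with IFNb in SCR cells (adjusted p = 5.05e-18). TUT7, which adds uridine to RNA ends, rose by 0.48 there (adjusted p = 0.0044).

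Of 11 measured oligoadenylate synthetases and signalling adaptors (12 listed), 6 rose and 2 fell with MPS1i in SCR cells (22.2% and 21.4% of all genes), and 6 rose and 3 fell with IFNb (7.92% and 38.5%). In IFNAR1sg cells 6 rose and 2 fell with MPS1i and 4 rose with IFNb. OAS3, an RNase L activator, rose by 1.72 with MPS1i (adjusted p = 1.7e-17) and by 1.62 with IFNb (adjusted p = 1.16e-14) in IFNAR1sg cells, and by 3.05 with IFNb in SCR cells (adjusted p = 1.16e-39). MAVS, the adaptor of RIG-I-like receptors, fell by 0.98 with MPS1i in IFNAR1sg cells (adjusted p = 0.00017) and by 1.41 in SCR cells (adjusted p = 5.96e-07).

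Among 20 measured other double-stranded RNA-binding proteins and helicases (21 listed), 5 rose and 8 fell with MPS1i in SCR cells (22.2% and 21.4% of all genes), and 4 rose and 10 fell with IFNb (7.92% and 38.5%). In IFNAR1sg cells 4 rose and 9 fell with MPS1i, and 3 rose and 1 fell with IFNb. IFIH1, the MDA5 sensor, rose by 1.79 with MPS1i (adjusted p = 1.03e-25) and by 1.18 with IFNb (adjusted p = 1.84e-12) in IFNAR1sg cells, and by 2.73 (adjusted p = 8.79e-45) and 3.11 (adjusted p = 2.7e-51) in SCR cells. RIGI, the RIG-I sensor, rose by 2.11 with MPS1i (adjusted p = 5.75e-29) and 1.38 with IFNb (adjusted p = 4.31e-14) in IFNAR1sg cells, and by 2.705 (adjusted p = 2.2e-42) and 2.57 (adjusted p = 1.48e-39) in SCR cells. STRBP, a spermatid RNA-binding protein, fell by 2.72 with IFNb in SCR cells (adjusted p = 1.32e-30), and DHX15, a splicing helicase, by 1.28 (adjusted p = 6.07e-16). Counts of list genes lower with IFNb in SCR cells depend on the scaling: in the order of the lists above they were 7, 7, 9, 3 and 10, and with DESeq2 3, 3, 5, 1 and 8.

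The gene sums most like each member over the 12 libraries were found by Pearson's r of log2 CPM, as a description; all libraries share the treatment groups. For EIF2AK2 they were MX1 (0.989), PLSCR1 (0.988) and EPSTI1 (0.986). For ADAR they were ZBTB6 (0.955), BTC (0.949) and IFIT3 (0.947), and for DHX9 NFYC (0.994), ERI3 (0.994) and IKBKB (0.992). STAU1 was nearest to SNRPF-DT (0.923), AC011445.1 (0.916) and BET1 (0.908), and ZC3HAV1 to RRBP1 (0.910) and IL1R1 (0.860). DROSHA was nearest to WDR4 (0.970), C2orf48 (0.960) and CPSF2 (0.957), and DICER1 to IQCE (0.949), N4BP2L2 (0.930) and CYP2S1 (0.924). PRKRA was nearest to 2 genes without a current symbol (0.969 and 0.967) and then to SLC15A3 (0.961).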

How the data were processed

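The authors' deposited table gives raw counts, whole numbers of reads for each region of a strand. J2-bound RNA had been made into stranded total RNA libraries per the labels' protocols. Per the submitters' processing notes, the tools were STAR, featureCounts, HOMER, Trim Galore, cutadapt and Trimmomatic, with no version, and the builds hg38 and GRCh38. The counting rule for strands, overlaps and multiply mapped reads was not given. Of all reads, 37.2% lay in regions that share a base with an exon of their strand, and 34.1% in regions sharing at most 2 bases, so values there depend on that counting. No column of sample values was left unused.

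Regions at least 50% inside the body of a gene on its strand were summed per gene, without and with exon-sharing regions, leaving out regions in 2 genes. Counts were tested with edgeR 4.0.16 in R 4.3.3 (filterByExpr by group with minimum count 10, total 15 and proportion 0.7, TMM, glmQLFit, glmQLFTest). All 12 libraries were fitted with 1 coefficient per group, and the sums took their library sizes and TMM factors from the fit of regions. That left 6 residual degrees of freedom. The prior of the fit was worth 148 degrees of freedom for sums without exon-sharing regions and 72.8 for regions. The spread used for a gene or region thus came mostly from all of them together. The contrasts were each treatment against DMSO within a genotype, IFNAR1sg against SCR in DMSO, and the IFNAR1sg change minus the SCR change. Standard errors were obtained as |log2 change| over the square root of F and are unreliable near 0. The 2 libraries of each group differed by more than sampling noise, with a chi-square per gene of 1.58 to 2.97 over 10620 genes. Scripts were tested on simulated data.

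Alternatives were DESeq2 1.42.0, other scalings and filters, the groups of a contrast alone, repeat-naming regions left out, a replicate block, each library left out and both SCR IFNb libraries left out. Named genes are the 8 members; per member the region with the smallest p in each treatment contrast; up to 2 higher and 2 lower called genes per list and contrast; the 3 sums most like each member; and IFNAR1 and ISG15. Other regions were chosen after their values were seen. The members and lists were chosen with earlier results of these data known. Promoters came from a RefSeq table of GRCh38.p14. One list of cell type markers is not reported here.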

Additional observations from a re-analysis of the deposited data

Results flagged for a closer look

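The change against DMSO differed between IFNAR1sg and SCR cells for 5 of the genes, by the test of the difference itself in edgeR (IFNAR1sg change minus SCR change, log2, adjusted p under 0.05 over all genes). For EIF2AK2 the difference was -0.76 with MPS1i and -0.59 with IFNb without exon-sharing regions, and -0.61 and -0.63 with them. For ADAR it was -0.75 with MPS1i and -1.39 with IFNb, in the sums with exon-sharing regions. For ZC3HAV1 it was -0.62 with MPS1i in both sums. With IFNb the ZC3HAV1 difference was 0.50 without and -0.87 with exon-sharing regions. For PRKRA it was -1.52 with IFNb in both sums. For DHX9 it was 1.75 with IFNb without exon-sharing regions; with them it was -0.65 with IFNb and -0.60 with MPS1i. Over all genes the median IFNb difference was 0.54 without and 0.24 with exon-sharing regions. The ZC3HAV1 value of 0.50 lay near that median, so it is no result about this gene. Both SCR IFNb libraries, which enter every IFNb difference, stood apart from the other 10 in the number of regions with reads and in the exon-sharing share, and the part of that in these differences was not tested.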

How the results depend on the processing

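For gene sums without exon-sharing regions, 1200 recomputed values kept their direction and call, 22 lost a call, 34 gained one and 12 turned direction. A change called under neither setting was given no direction. With exon-sharing regions added, the direction turned for DHX9 (0.34 with IFNb and 0.030 with MPS1i in SCR cells; differences between genotypes of -0.65 and -0.60), for DROSHA with IFNb in SCR cells (0.36), for ZC3HAV1 with IFNb in SCR cells (1.31), with MPS1i in IFNAR1sg cells (0.78) and in the IFNb difference (-0.87), for EIF2S2 in SCR cells (0.74 with IFNb, 0.068 with MPS1i) and for XRN2 with IFNb in SCR cells (0.062). With DESeq2 it turned for DROSHA (0.54) and ZC3HAV1 (0.46) with IFNb in SCR cells and for the ZC3HAV1 IFNb difference (-0.054). Without repeat-naming regions the EIF2AK2 IFNb difference was 0.0062. The opposite-strand STAU1 region at 49135820 changed by -0.034 to 1.30 with MPS1i in IFNAR1sg cells when a library was left out, the lowest without IFNAR1sg MPS1i replicate 2. The cause was not tested.

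Counts of members called moved by over 1.5 times as follows. The IFNb difference gave 1 gene without repeat-naming regions (4 otherwise), and 9 to 15 regions with a library left out (15 otherwise). The MPS1i difference gave 4 genes with exon-sharing regions, 0 without repeat-naming regions and 1 to 2 with a library left out (2 otherwise), and 0 to 3 regions with a library left out (0 otherwise). IFNb in IFNAR1sg cells gave 2 genes with DESeq2, 3 with exon-sharing regions, 2 with only its own groups and 1 to 2 with a library left out (1 otherwise), and 2 to 8 regions with a library left out (6 otherwise). IFNb in SCR cells gave 7 genes with DESeq2, 6 of them higher, and 2 without repeat-naming regions (4 otherwise). MPS1i in SCR cells gave 19 to 32 regions with a library left out (32 otherwise), the lowest without SCR MPS1i replicate 2.

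With the replicate number as a block, 3 member regions were called in the MPS1i difference, against 0 without it. The 7 counts of gene sums without exon-sharing regions were unchanged. With exon-sharing regions, the block added a call for DHX9 with IFNb in IFNAR1sg cells, at -0.31 (adjusted p = 0.0327). The numbers do not pair the libraries: over 15 pairs of groups the correlation of same-numbered deviations was -0.0645 to 0.102, and 1 was over 0.1. Without both SCR IFNb libraries, the 5 comparisons that do not use them gave the same counts of genes, and comparisons that use them could not be run. DESeq2 was not run on single regions. With 742 reads for PRKRA and 1510 for DICER1, changes of these genes were measured less precisely than those of the other members.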
